A study of Mus musculus with 24 samples.

Results

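The genes described here encode the neurofilament subunits Nefl, Nefm, Nefh and Ina, the microtubule-associated proteins Map1a, Map1b, Map2 and Mapt, and 2 proteins of growing neurites, Stmn3 and Gap43. They were taken by symbol from the PAPERCLIP count tables, as 10 of 23871 genes, and by Ensembl identifier from the RNA-seq count tables, as 10 of 47069. The study used mice that carry a Cre driver together with Ctag-PABP, a poly(A)-binding protein whose crosslinked mRNA ends are recovered with antibodies to GFP (cTag-PAPERCLIP). The groups were Gfap-Cre cortex, named for the astrocyte filament gene, Camk2a-Cre cortex, named for an excitatory neuron kinase, and Gad2-Cre cortex, named for an enzyme of inhibitory neurons, with 2 libraries each. Whole brain from Cx3cr1-Cre mice, named for a microglial receptor, gave 3 libraries after lipopolysaccharide (LPS), 3 after phosphate-buffered saline (PBS) and 2 with no treatment. All of these mice carried both Cre and Ctag-PABP; the labels give neither their age, nor which Cre line of each name was used, nor the LPS dose for the tagged mice. RNA-seq of cortex at embryonic day E18.5 from Ptbp2-KO mice, which lack a neuronal splicing regulator, gave 3 libraries and had no control cortex beside it. RNA-seq of microglia isolated from adult wild-type C57BL/6 brain gave 3 libraries after LPS at 1 mg per kg and 3 after PBS. Each was given in 4 daily injections, with 2 brains to a tube. The labels add 1 liver library made with PAPERCLIP from CL57/B6J, naming neither Cre nor Ctag-PABP for it.

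Neurofilaments are the intermediate filaments of neurons. Nefl forms the core of the filament, Nefm and Nefh carry long tails that project from it, and Ina (alpha-internexin) joins them in the central nervous system. Microtubule-associated proteins bind and stabilise microtubules, with Map2 known as a protein of dendrites and cell bodies, Mapt (tau) of axons, Map1b of growing axons and Map1a of mature neurites. Stmn3 (SCLIP) is a stathmin, a family that binds tubulin dimers and favours disassembly, and Gap43 is a membrane protein of growth cones.

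Library totals were 133456 to 2005627 counts in the tagged brain libraries and 19446610 to 27415288 in the knockout cortex. Each label was set against marker genes of its cell type. Astrocyte markers took 2.53% to 2.96% of counts in the Gfap libraries, against at most 0.0664% in the Camk2a libraries and 0.0329% in the Gad2 libraries, and Gfap, Camk2a, Gad2 and Cx3cr1 libraries each ranked highest for their own list. Microglia markers took 4.09% to 5.14% in the Cx3cr1 libraries. The Gfap libraries differed in oligodendrocyte genes, at 0.124% and 0.956%, and among the Cx3cr1 libraries PBS replicate 3 stood apart in marker genes of other cell types and of liver, as described with the LPS results.

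The promoters shown are those of the microtubule-related members that could be tested. They were chosen because these genes did not separate the neuron types but had unlike fitted differences in the Gfap libraries. Mapt had no matching entry, so Map2 alone stands for the smaller differences. The letters were not compared with these differences. RefSeq promoter entries on GRCm38.p6, running from 250 bases before to 50 bases after the start the table gives, matched 5 of the 10 members (Ina, Map1a, Map1b, Map2 and Stmn3). Capitals mark 3 motifs, each searched on both strands. The TATA box was searched as TATAAA. The CCAAT box was searched as its name spells. The GC box was searched as GGGCGG, which reads as its reverse complement where it lies on the opposite strand. Map1a lies at chr2:121289352-121289651 on the plus strand, Map1b at chr13:99516553-99516852 on the minus strand, Map2 at chr1:66175079-66175378 on the plus strand and Stmn3 at chr2:181314451-181314750 on the minus strand.
Map1a: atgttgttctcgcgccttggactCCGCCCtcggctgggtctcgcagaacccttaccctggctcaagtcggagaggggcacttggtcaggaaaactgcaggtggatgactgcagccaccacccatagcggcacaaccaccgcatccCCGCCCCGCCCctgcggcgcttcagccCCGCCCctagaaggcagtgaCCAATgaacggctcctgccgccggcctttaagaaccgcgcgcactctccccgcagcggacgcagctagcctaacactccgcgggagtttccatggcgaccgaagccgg
Map1b: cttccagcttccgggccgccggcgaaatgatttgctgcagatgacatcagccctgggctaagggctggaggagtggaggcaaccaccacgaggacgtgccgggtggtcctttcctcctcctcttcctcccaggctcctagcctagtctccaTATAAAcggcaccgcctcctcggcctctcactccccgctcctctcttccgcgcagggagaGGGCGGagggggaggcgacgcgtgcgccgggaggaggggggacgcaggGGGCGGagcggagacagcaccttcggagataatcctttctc
Map2: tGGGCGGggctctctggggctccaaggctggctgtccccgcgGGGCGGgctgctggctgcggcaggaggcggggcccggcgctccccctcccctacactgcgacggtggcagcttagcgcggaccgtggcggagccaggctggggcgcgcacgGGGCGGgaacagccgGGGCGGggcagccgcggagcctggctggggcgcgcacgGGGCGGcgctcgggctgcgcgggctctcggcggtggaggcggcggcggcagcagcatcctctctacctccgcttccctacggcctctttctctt
Stmn3: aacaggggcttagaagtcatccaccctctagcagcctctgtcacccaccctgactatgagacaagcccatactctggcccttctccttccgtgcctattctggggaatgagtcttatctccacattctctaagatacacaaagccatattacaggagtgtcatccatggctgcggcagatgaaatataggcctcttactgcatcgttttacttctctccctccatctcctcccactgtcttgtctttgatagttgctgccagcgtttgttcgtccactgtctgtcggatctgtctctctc
Map1a held 1 CCAAT box and 4 GC boxes, 2 of which overlap by a base, and Map1b held 1 TATA box and 2 GC boxes. Map2 held 5 GC boxes and Stmn3 held none of the 3 motifs. Of 32851 mouse promoters of this length, 13.6% held a TATA box, 37.4% a CCAAT box and 35.7% a GC box. The count of CpG dinucleotides was 27 in Map1a, 23 in Map1b, 37 in Map2 and 6 in Stmn3, beside a median of 7 over all promoters. These matches describe the letters in the window and nothing about binding. On the same build the other filament genes lie at chr14:68083863-68089095 (Nefl) and chr14:68119545-68125004 (Nefm), with 30449 bases and 1 predicted gene between them, at chr11:4938754-4948064 (Nefh) and at chr19:47014681-47025327 (Ina). Mapt spans chr11:104229409-104332090 and Gap43 chr16:42248552-42340651.

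**Figure D1:**
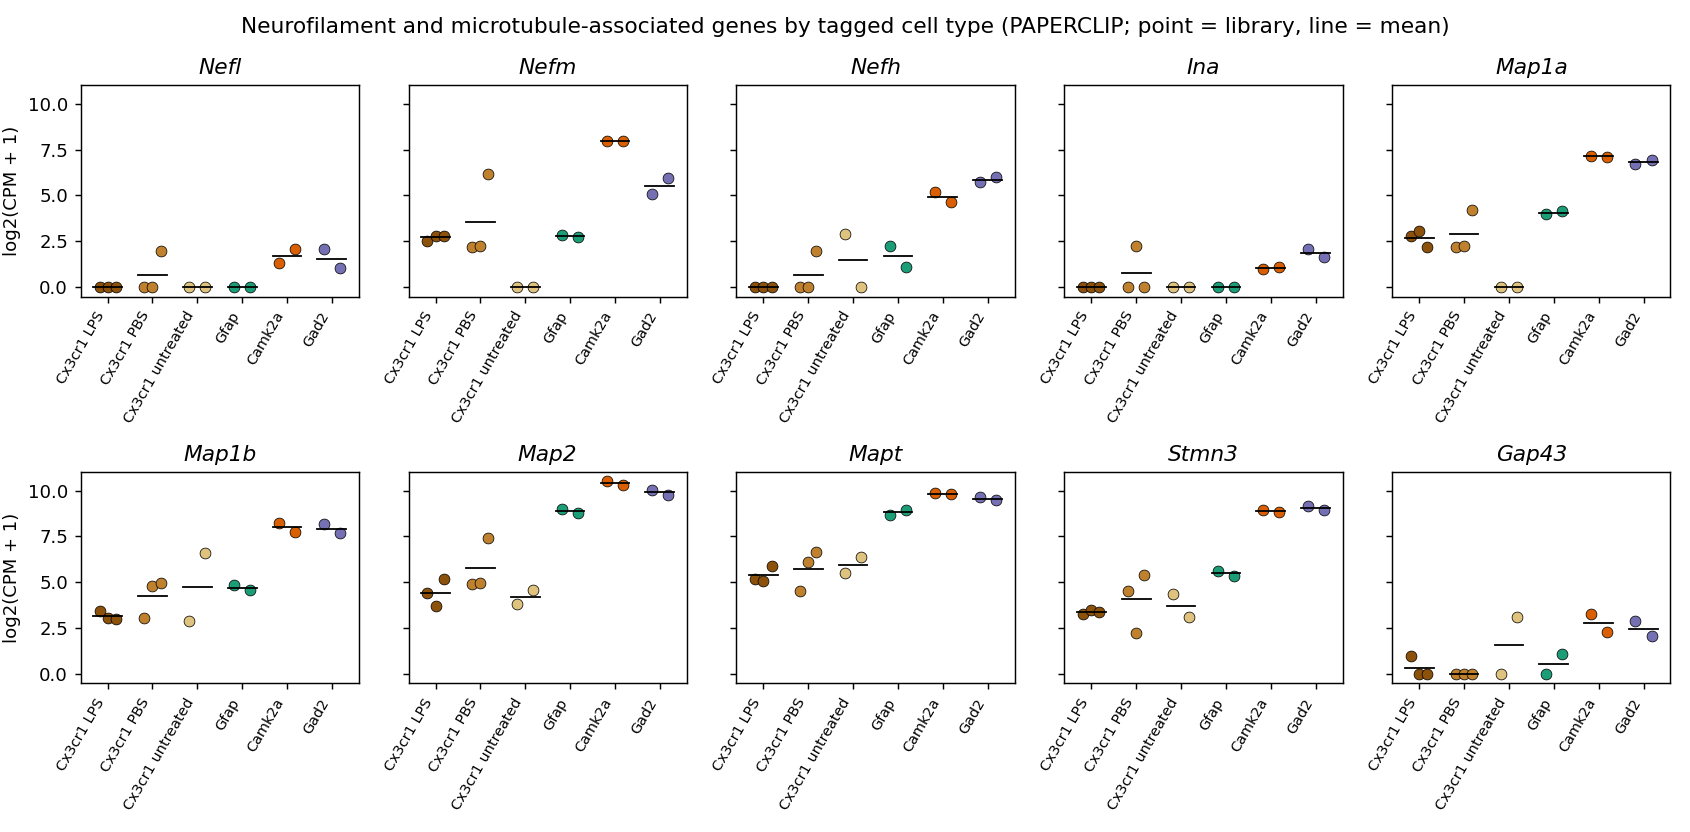
Log2(CPM + 1) of the 10 genes in each tagged PAPERCLIP library, by cell type, where CPM is counts scaled to the library total; points are libraries and lines are group means. Nefm stands highest in the Camk2a libraries, and Map2 and Mapt stay high in the Gfap libraries. Nefl, Ina and Gap43 have the lowest means in the Camk2a, Gad2 and Gfap libraries, and none of them exceeds 8.48 CPM in any library.

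The first comparison set excitatory against inhibitory neurons, with 9421 genes tested in a fit of the 8 untreated libraries. Of the 10 members, 7 passed the filter on low counts, and Nefl, Ina and Gap43 did not. Nefm was higher and Nefh was lower in the Camk2a libraries, and the other 5 did not pass the test. Over all genes, 11.6% were called higher and 9.60% lower.

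Nefm, the medium subunit, had 241 and 234 normalised CPM in the Camk2a libraries and 32.3 and 58.2 in the Gad2 libraries. Every Camk2a library lay above every Gad2 library, with means of 237 ± 4.77 and 45.2 ± 18.3 (SD, n = 2 each). The log2 difference was 2.34 (SE 0.27, edgeR adjusted p = 3.82e-06), a fold of 5.06, and it stayed called in all alternatives run. Nefh, the heavy subunit, had 34.3 and 22.03 normalised CPM in the Camk2a libraries and 50.7 and 59.1 in the Gad2 libraries, again without overlap. Its log2 difference was -0.97 (SE 0.32, edgeR adjusted p = 0.0336). That call was lost with DESeq2 (adjusted p = 0.102), with a filter at 5 CPM (edgeR adjusted p = 0.0767) and in edgeR when any 1 of the 4 neuronal libraries was left out (adjusted p of 0.0981 without Gad2 replicate 1, 0.311 without Gad2 replicate 2, 0.0690 without Camk2a replicate 1 and 0.370 without Camk2a replicate 2).

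Counts of the 2 tail-bearing subunits stood in unlike proportion in the Camk2a and Gad2 libraries. There were 7.01 and 10.6 Nefm counts per Nefh count in the Camk2a libraries, against 0.636 and 0.983 in the Gad2 libraries. This ratio was chosen with the values known and is given as a description.

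None of the 5 microtubule-related members passed the test between neuron types. Map2 had 1416 and 1153 normalised CPM in the Camk2a libraries and 1023 and 830 in the Gad2 libraries, a log2 difference of 0.47 (95% interval -0.08 to 1.02). Mapt had 897 and 834 in the Camk2a libraries and 773 and 678 in the Gad2 libraries, a log2 difference of 0.26 (interval -0.27 to 0.78). Both were higher in each Camk2a library than in either Gad2 library, within the spread that the fit allows. Uncalled genes of the related list, such as Gsk3b and Klc1, also separated the libraries without overlap, both with the Gad2 libraries higher. The share of all genes without overlap was not computed, so lack of overlap is only a description here and in the other comparisons.

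Map1a had 140 and 127 normalised CPM in the Camk2a libraries and 99.9 and 114 in the Gad2 libraries (log2 difference 0.31, interval -0.16 to 0.77). Map1b had 286 and 199 in the Camk2a libraries and 275 and 191 in the Gad2 libraries, so its groups overlapped (0.07, interval -0.57 to 0.71). Stmn3 overlapped too, at 481 and 425 in the Camk2a libraries and 557 and 458 in the Gad2 libraries (-0.16, interval -0.66 to 0.34). For these 5 genes a log2 difference above 1.02 in either direction lies outside the interval.

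Of 61 other cytoskeletal genes (other filaments, stathmins, microtubule-associated proteins, tubulins, kinases and motors), 57 were tested. In Camk2a over Gad2, 16 were higher, 1 was lower and 40 did not pass, with a median log2 difference of 0.31 beside 0.03 over all genes. The largest called changes were in Stmn1, the founding stathmin (1.85, SE 0.34, edgeR adjusted p = 0.000499), Mark2, a kinase that phosphorylates tau (1.66, SE 0.28, edgeR adjusted p = 0.000223), Map1s (1.76, SE 0.60, edgeR adjusted p = 0.0435) and, in the other direction, the kinesin Kif5b (-1.83, SE 0.32, edgeR adjusted p = 0.000269).

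The second comparison set the Gfap libraries against the mean of both neuronal groups. All 7 members tested were lower in the Gfap libraries, where 29.3% of all genes were called lower and 31.3% higher. Their fitted differences spread widely. Nefm, Nefh, Map1a, Map1b and Stmn3 were 6.76-fold to 17.2-fold lower, while Map2 was 2.04-fold and Mapt 1.58-fold lower.

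Nefm had 7.21 and 6.13 normalised CPM in the Gfap libraries, below all 4 neuronal libraries (log2 difference -4.00, SE 0.35, edgeR adjusted p = 2.02e-08). Nefh had 4.33 and 1.23 in the Gfap libraries (-4.11, SE 0.50, edgeR adjusted p = 9.13e-07), from 3 and 2 counts. Map1a had 17.3 and 17.8 (-2.76, SE 0.26, edgeR adjusted p = 4.53e-08). Neither filament subunit nor Map1a overlapped with the neuronal libraries. Map1b had 31.7 and 24.5 in the Gfap libraries (-3.12, SE 0.35, edgeR adjusted p = 3.16e-07), and Stmn3 had 56.3 and 42.9 (-3.30, SE 0.26, edgeR adjusted p = 3.02e-09). Each Gfap library again lay below every neuronal library.

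Map2 kept 591 and 478 normalised CPM in the Gfap libraries, a mean of 535 ± 79.8 against 1284 ± 186 in the Camk2a and 926 ± 136 in the Gad2 libraries (SD, n = 2 each). This was 41.7% of the Camk2a mean and 57.8% of the Gad2 mean. The log2 difference was -1.03 (SE 0.24, edgeR adjusted p = 0.000989). Mapt had 473 and 529 in the Gfap libraries, a mean of 501 ± 39.8 that was 57.9% of the Camk2a mean and 69.1% of the Gad2 mean (-0.66, SE 0.22, edgeR adjusted p = 0.0155). Neither gene's Gfap libraries reached the neuronal range. The Mapt call was lost in edgeR with counts thinned to the shallowest library (adjusted p = 0.160) and without Gfap replicate 1 (0.101), Gfap replicate 2 (0.0621) or Camk2a replicate 1 (0.0614).

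Against Stmn3, a member whose fall was near that of neuronal markers, there were 10.5 and 11.1 Map2 counts per Stmn3 count in the Gfap libraries, 2.94 and 2.71 in the Camk2a libraries and 1.84 and 1.81 in the Gad2 libraries. No Gfap ratio overlapped with a neuronal one. Stmn3 was chosen with the values known, so the higher Gfap ratios follow in part from that choice. The ratios are a description of 6 libraries, without a test.

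Pan-neuronal markers were present in the Gfap libraries too. The 12 of them took 0.185% and 0.0941% of Gfap counts, against 1.47% to 1.76% in the neuronal libraries, and 11 of 12 were lower with a median log2 difference of -3.33. Their Gfap level was 5.01% to 67.6% of the neuronal mean, with a median of 9.95%. Within that range Stmn3 stood at 10.3%, Map1b at 11.8%, Map1a at 14.6% and Nefh at 6.68%, while Nefm at 4.73% was below the lowest marker. Map2 at 48.4% and Mapt at 63.0% were above all of the markers except Snhg11, a noncoding RNA host gene at 67.6%. These percents divide by the plain mean of both neuronal groups, whereas the fitted differences average their logs, and the ranks at both ends depend on this. In the fit the 12 markers ran from -4.21 to -0.76. There Nefm at -4.00 lay within their range, and Mapt at -0.66 lay above all of them. Genes of other cell types were also higher in the Gfap libraries than in neurons. These were 8 of 8 astrocyte markers (median log2 difference 7.63) and 6 of 6 tested oligodendrocyte markers (median 5.10). The joint list of newborn neuron and progenitor markers was mixed, with 4 of 7 tested higher and 2 lower (median 2.20). Dcx was among the lower (-1.30, SE 0.33, edgeR adjusted p = 0.00218). Fewer cells of a type and less RNA per cell cannot be told apart in these libraries, and the part that RNA of neurons, oligodendrocytes or newborn neurons plays in the Gfap levels was not tested.

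**Figure D2:**
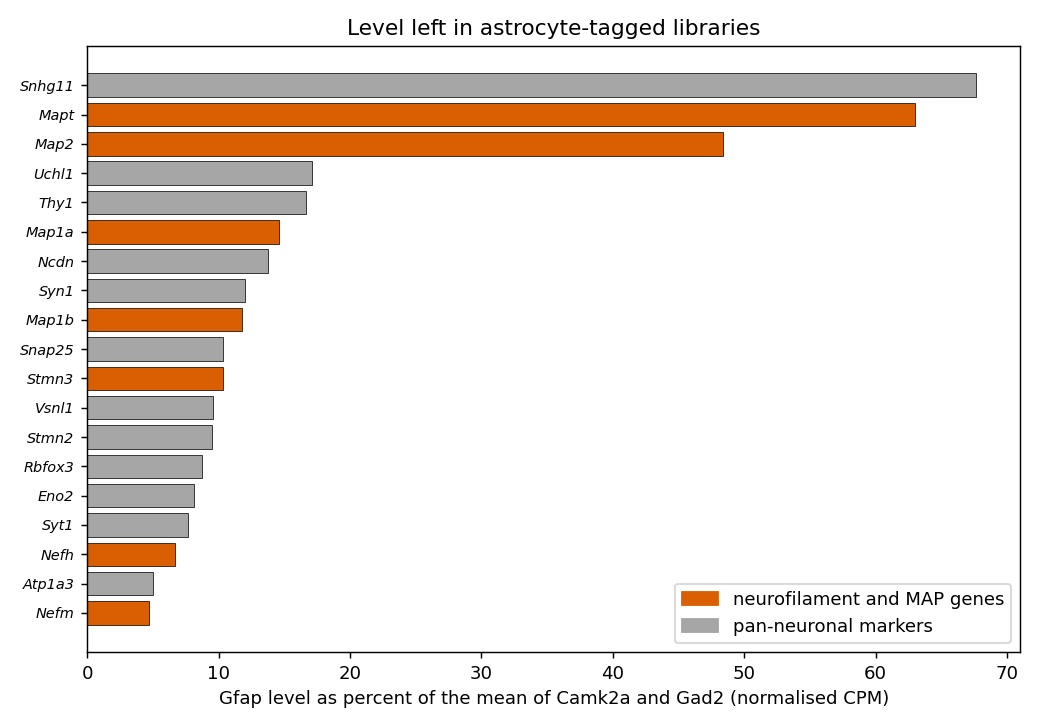
Level in the Gfap libraries as percent of the mean of the Camk2a and Gad2 libraries (normalised CPM, group means) for the 7 tested members and 12 pan-neuronal markers, as bars from 0. Map2 (48.4%) and Mapt (63.0%) stand beside Snhg11 (67.6%), and all other bars end at or below 17.1%.

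Of the 57 related cytoskeletal genes tested, 36 were lower, 6 were higher and 15 did not pass, with a median log2 difference of -1.01 beside 0.00 over all genes. Lower genes included the neuronal motor subunits Dync1i1 (-3.95, SE 0.34), Kif5c (-3.58, SE 0.28) and Kif5a (-3.53, SE 0.30), with edgeR adjusted p of 7.13e-09, 2.46e-09 and 8.32e-09. The glial filament genes Gfap (8.63, SE 0.33, edgeR adjusted p = 3.63e-13) and Vim (7.80, SE 0.35, edgeR adjusted p = 8.53e-13) and the tubulin Tubb2b (5.66, SE 0.85, edgeR adjusted p = 1.47e-05) were higher, Tubb2b from unequal counts of 3 and 48 in the Gfap libraries. With no Tubb2b count in the Camk2a libraries and 0 and 2 in the Gad2 libraries, its fitted size is not determined. By family, 12 of 14 kinases and motors, 13 of 22 microtubule-associated proteins and 5 of 9 tubulins were lower.

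The third comparison set the untreated Cx3cr1 libraries against the mean of the 3 cortical groups. Here tissue and cell type cannot be told apart, since the Cx3cr1 libraries came from whole brain, and these libraries were the shallowest, at 154959 and 133456 counts. Of the 7 members tested, 5 were lower and 2 did not pass, where 28.0% of all genes were called lower and 21.8% higher. The median log2 difference of all genes was -0.48, so the members' values are to be read against that shift.

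Map2 had 2 and 3 counts in the untreated Cx3cr1 libraries, or 14.5 and 22.02 normalised CPM, far below every cortical library (log2 difference -5.55, SE 0.44, edgeR adjusted p = 5.97e-09). Mapt had 7 and 11 counts, or 50.9 and 80.7 normalised CPM (-3.37, SE 0.34, edgeR adjusted p = 1.15e-07). Stmn3 had 3 and 1 counts, or 21.8 and 7.34 normalised CPM (-3.92, SE 0.49, edgeR adjusted p = 2.25e-06). None of the 3 overlapped with a cortical library.

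Nefm and Map1a had no count in either untreated Cx3cr1 library. Both were called lower (edgeR adjusted p = 0.00118 for Nefm and 7.60e-05 for Map1a), but their size is only bounded. Taking 3 counts over both libraries as the floor, 11.0 normalised CPM, Nefm was at least 21.6-fold lower than in Camk2a and 4.13-fold lower than in Gad2 libraries. On the same floor Map1a was at least 12.2-fold below the Camk2a, 9.78-fold below the Gad2 and 1.60-fold below the Gfap libraries.

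Map1b differed between the untreated Cx3cr1 libraries, with 1 and 13 counts, or 7.27 and 95.4 normalised CPM. It did not pass the test (log2 difference -1.17, SE 0.51, edgeR adjusted p = 0.0648). Without untreated replicate 2 the difference was -4.03 (edgeR adjusted p = 0.00203). Other settings also moved it past the threshold, with edgeR adjusted p of 0.0445 with total counts, 0.00391 with no filter, 0.0433 without Gfap replicate 2 and 0.0381 without Camk2a replicate 2. Nefh had 1 and 0 counts, too few to place it (-2.03, interval -4.62 to 0.57).

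**Figure D3:**
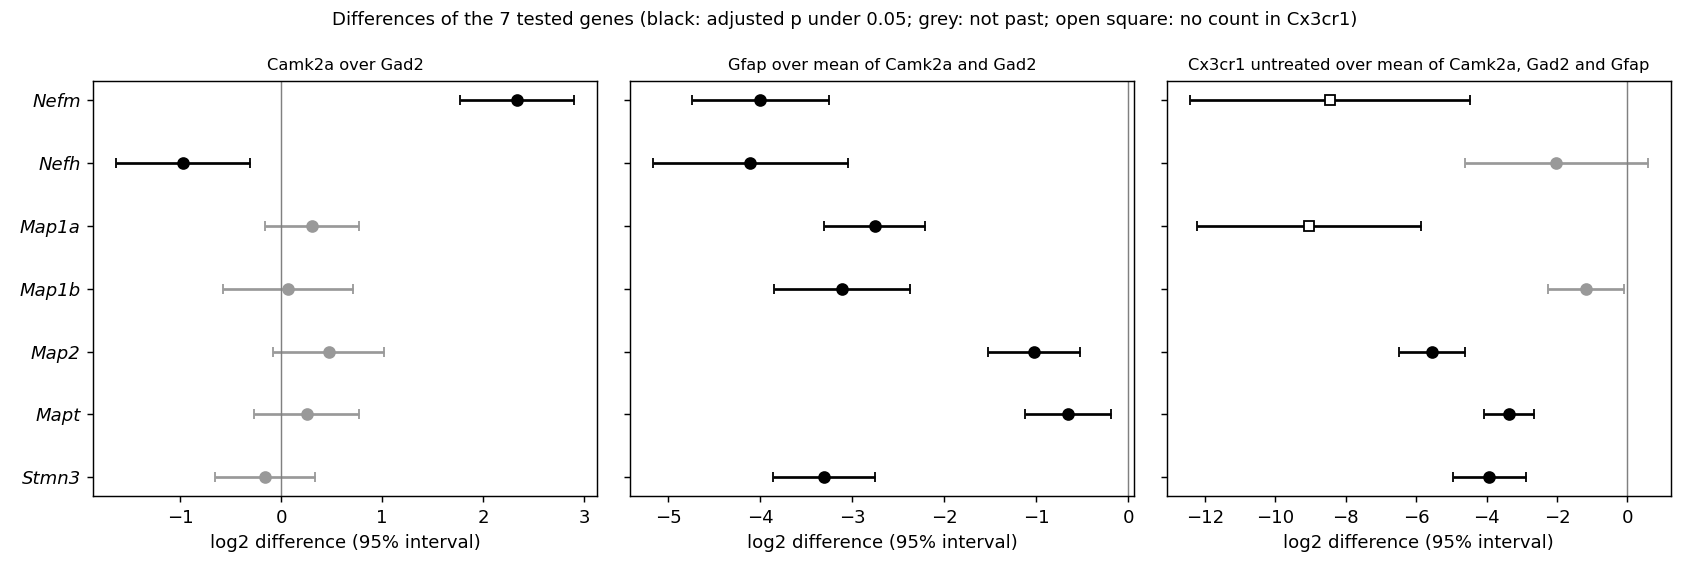
Log2 differences with 95% intervals for the 7 tested members in 3 comparisons of the same fit; black marks an adjusted p under 0.05, grey a gene that did not pass, and open squares genes with no count in the Cx3cr1 libraries, whose fitted size is not determined. Nefm is the only one above 0 and called in the left panel, and Map2 and Mapt lie nearest to 0 in the middle panel.

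Of the 57 related cytoskeletal genes tested, 33 were lower, 6 were higher and 18 did not pass in the Cx3cr1 libraries, with a median of -1.70. Marcks, a protein kinase C substrate that binds actin (4.79, SE 0.24, edgeR adjusted p = 7.33e-12), and the tubulins Tubb5 (3.07, SE 0.27, edgeR adjusted p = 1.82e-08) and Tubb2b (3.33, SE 1.35, edgeR adjusted p = 0.0490, from 2 counts in each Cx3cr1 library) were higher. Tubb2b had no count in the Camk2a libraries and 0 and 2 in the Gad2 libraries, so its fitted size is not determined. Its Cx3cr1 mean of 14.6 normalised CPM lay below its Gfap mean of 16.9. The difference of Gfap over Cx3cr1 libraries did not pass for Tubb2b (0.45, edgeR adjusted p = 0.746). The tau kinase Mark1, Stmn1 and the collapsin response gene Dpysl3 were called lower with no count in either Cx3cr1 library (edgeR adjusted p of 2.66e-06, 0.00569 and 0.00314), so the size of their fitted fall, by which they are named, is not determined. On the floor of 11.0 normalised CPM they were at least 18.4-fold, 8.04-fold and 2.43-fold lower than in the Camk2a libraries.

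Set directly against the untreated Cx3cr1 libraries, the Gfap libraries had more Map2 (log2 difference 4.86, SE 0.48, edgeR adjusted p = 1.42e-07) and Mapt (2.93, SE 0.37, edgeR adjusted p = 2.45e-06). This comparison shares its libraries with those above. In all, 4 of 7 members were higher and 3 did not pass, where 27.0% of all genes were called higher, 17.6% lower, and the median over all genes was 0.53. Stmn3 was higher by 1.72 (SE 0.64, edgeR adjusted p = 0.0347), a call lost with DESeq2 (adjusted p = 0.0678) and, in edgeR, with thinned counts (0.151), without Gfap replicate 1 (0.0747) or without untreated Cx3cr1 replicate 2 (0.222). Map1a was called (edgeR adjusted p = 0.0144) against a group with no count, and not without untreated replicate 1 (0.0565) or replicate 2 (0.0757). The 12 pan-neuronal markers took 0.0658% and 0.0667% of untreated Cx3cr1 counts, and 2 of 12 were called higher in the Gfap libraries, with a median of 1.08. Of the related genes, 23 of 57 were higher and 9 lower in the Gfap libraries, where Gfap, Mark1 and Dpysl3 had the highest fitted values but no count in untreated Cx3cr1 libraries. On the floor of 11.0 normalised CPM they were at least 56.5-fold, 7.93-fold and 2.09-fold higher in the Gfap libraries, so their rank is not determined. In the other direction stood Marcks (-4.65, SE 0.37), the growth cone protein Basp1 (-3.82, SE 0.34) and Tubb5 (-3.75, SE 0.39).

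The order of levels can be read for each member from these values. Nefm ran Camk2a, Gad2, Gfap without overlap. Its place in untreated Cx3cr1 libraries, with no count, could not be ranked against Gfap, whose mean of 6.67 normalised CPM lies under the floor of 11.0, and that difference did not pass the test (5.78, interval -0.97 to 12.5, edgeR adjusted p = 0.155). Map2 and Mapt ran Camk2a, Gad2, Gfap, Cx3cr1, where the step between the neuronal groups did not pass the test. Map1a ran the same way, and Map1b and Stmn3 had overlapping neuronal groups. Nefh ran Gad2, Camk2a and then Gfap, with 1 count in the untreated Cx3cr1 libraries, too few to set beside the 5 of the Gfap libraries. The Map1b difference of Gfap over untreated Cx3cr1 libraries did not pass the test (-0.91, edgeR adjusted p = 0.269) and turned with the library left out, at -1.64 without untreated replicate 1 (edgeR adjusted p = 0.0322) and 1.94 without replicate 2 (edgeR adjusted p = 0.246).

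For each tested member, genes of most similar pattern were found by Pearson correlation of log2(normalised CPM + 1) over the 8 untreated libraries among 8371 genes, as a description of libraries that share groups. Nefm was closest to Npy1r (r = 0.999), a neuropeptide Y receptor at 98.9 normalised CPM in the Camk2a, 23.8 in the Gad2 and 4.31 in the Gfap libraries, then Sowaha and Zer1. Nefh was closest to Fam196a (r = 0.988) and Flrt3, both higher on average in Gad2 than in Camk2a libraries. Map1a was closest to Nipsnap1, Map3k12 and Atcay, Map1b to Sgpp2, Cds1 and Atp2b3, and Stmn3 to Rph3a, Dnajc6 and Trim32. Map2 was closest to Tceal3 (r = 0.997), which also stayed at 257 normalised CPM in the Gfap libraries beside 508 for Camk2a and 447 for Gad2, and to Tarsl2 and Lysmd4. Mapt was closest to Pgap1 (r = 0.996), Rragd and Plcb1.

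LPS was compared with PBS in the Cx3cr1 libraries, where 3 libraries stood on each side and 5692 genes were tested. Only Map2 and Mapt passed the filter on low counts, and neither passed the test, where 2.74% of all genes were called higher and 0.791% lower. Map2 had 20.6, 12.6 and 36.5 normalised CPM after LPS, against 30.2, 32.3 and 180 after PBS. PBS replicate 3 was the highest of the 6, and the groups overlapped. The log2 difference was -1.83 (SE 0.58, edgeR adjusted p = 0.118, unadjusted p = 0.00747).

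The titles state no pairing of these libraries. With the replicate number as a block Map2 was called lower (-1.64, SE 0.35, edgeR adjusted p = 0.00445), as it was with DESeq2 (adjusted p = 0.0482) and with no filter (edgeR adjusted p = 2.97e-05). Without PBS replicate 3 the difference was -0.39 (edgeR adjusted p = 0.810), and without replicate 3 of both groups -0.83 (edgeR adjusted p = 0.528). Mapt had 36.4, 34.8 and 59.6 normalised CPM after LPS and 22.6, 72.7 and 102 after PBS (-0.62, SE 0.41, edgeR adjusted p = 0.502). Its groups overlapped, and without PBS replicate 3 its difference was -0.10.

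Among these 6 libraries PBS replicate 3 held the highest share of the members and of every marker list except that of microglia. Astrocyte markers took 0.0429% of its counts, against at most 0.0290% in the other 5, and oligodendrocyte markers 0.0515%, against at most 0.0377%. The 10 members took 0.0435% of its counts, against 0.00751% to 0.0139% in the other 5 LPS and PBS libraries. Pan-neuronal markers took 0.385% of its counts, against 0.0571% to 0.0765%. The 7 of them that were tested had a median log2 difference of -1.58 for LPS over PBS, with 1 called lower. Liver genes took 0.196% of its counts, against at most 0.00368% in the other 5. Nefm had 24 counts in it, against 5, 4 and 5 after LPS and 1 and 1 in the other PBS libraries. What carried these genes into the library was not tested.

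**Figure D4:**
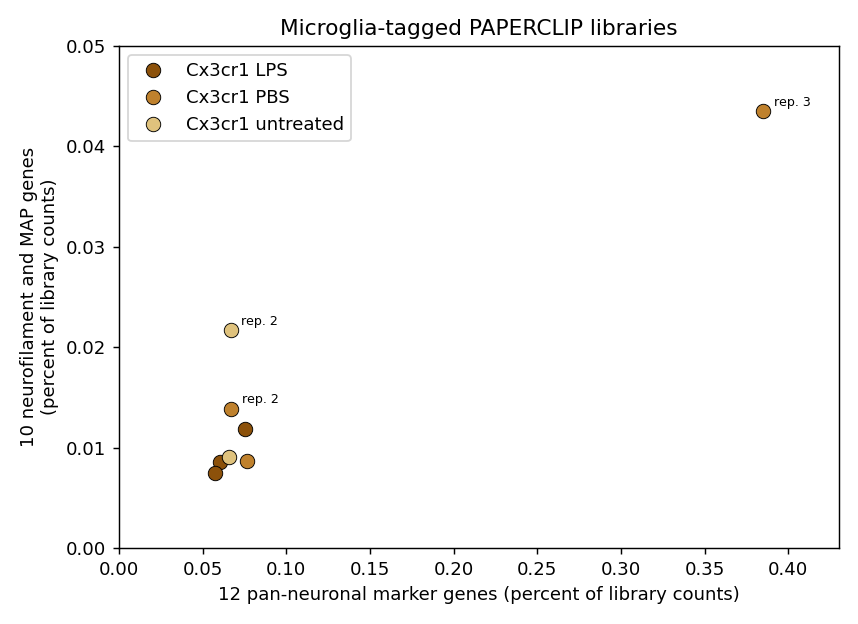
Share of library counts in the 10 members against the share in 12 pan-neuronal markers, in percent, for the 8 Cx3cr1 libraries. PBS replicate 3 lies apart at 0.385% and 0.0435%, and the others lie at or below 0.0765% of markers and 0.0217% of members.

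Of 36 related cytoskeletal genes tested, 2 were higher after LPS and 34 did not pass in edgeR, with a median of -0.19 beside -0.01 over all genes. They were Marcksl1, an actin-binding substrate of protein kinase C (log2 difference 1.87, SE 0.28, edgeR adjusted p = 0.00218), and the filament gene Vim (1.55, SE 0.29, edgeR adjusted p = 0.00785). These counts come from the fit without the replicate block. With the block 3 were higher and 4 lower, where 4.53% of all genes were called higher and 2.90% lower. The block added Tubb5 (0.83) to the higher genes, and the lower ones were Tubb3 (-1.47), Dclk1 (-1.42), Kif1a (-1.08) and Tppp (-0.60), all 5 named after their values were seen. Of the 7 pan-neuronal markers tested, 4 were lower with the block, and their part in these values was not tested.

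Nefl, Ina and Gap43 were almost absent from the tagged libraries. Nefl had 3 and 6 counts in the Camk2a libraries and 2 and 1 in the Gad2 libraries, and Ina had 2 counts in each of these 4. Gap43 had 17 and 7 counts in the Camk2a libraries and 4 and 3 in the Gad2 libraries. In the Gfap libraries Nefl and Ina had no count and Gap43 had 0 and 2, and in the 8 Cx3cr1 libraries none of the 3 had more than 1. None of the 3 passed the filter of the fit. Under looser filters Gap43 was lower in the Gfap libraries than in neurons, with a log2 difference of -2.43 with no filter (edgeR adjusted p = 0.0272) and -2.41 with a filter at 5 CPM (edgeR adjusted p = 0.0433). How reads were assigned to genes is not given in the sources used here, so these are low counts in the deposited tables and are not shown to be low expression.

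In the knockout cortex Ptbp2 itself, the targeted gene, had 36.7, 28.5 and 26.3 CPM. Its counts cannot check the label, because the deleted part of the gene is not given in the labels and no control cortex was analysed here. All 10 members were counted in all 3 libraries. Replicate 3 was the shallowest, differed most from the others over genes (chi-square per degree of freedom of 75.5 and 76.9, against 6.67 between replicates 1 and 2), and was lower for every member.

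The filament genes had unlike values from those in the tagged neurons. Ina had 165, 166 and 120 CPM in the knockout cortex, from 2338 to 4560 counts, and Nefl had 56.3, 54.5 and 37.8 CPM. Nefm had 20.6, 21.4 and 11.8 CPM and Nefh 3.68, 3.61 and 2.73 CPM. The plain CPM of the Camk2a libraries averaged 1.04 for Ina, 2.38 for Nefl, 252 for Nefm and 29.7 for Nefh. The Ina, Nefl and Gap43 values of the tagged libraries carry the limit on read assignment given above. Ina and Nefl were the filament genes with the higher value in the knockout cortex, and Nefm and Nefh those with the higher value in the Camk2a libraries.

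Gap43 had 355, 368 and 321 CPM in the knockout cortex, beside a mean of 6.15 in the Camk2a libraries. Map1b had 3657, 3644 and 2872 CPM in the knockout cortex, beside 256 in the Camk2a libraries, and Map1a had 96.9, 99.5 and 61.8 CPM, beside 141.3. There were 0.0265, 0.0273 and 0.0215 Map1a counts per Map1b count in the knockout cortex, against 0.487 and 0.638 in the Camk2a and 0.363 and 0.598 in the Gad2 libraries. Map2 (2220, 2309 and 2015 CPM), Mapt (1095, 1096 and 919 CPM) and Stmn3 (313, 317 and 307 CPM) stood nearer their Camk2a means of 1359, 918 and 480.

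**Figure D5:**
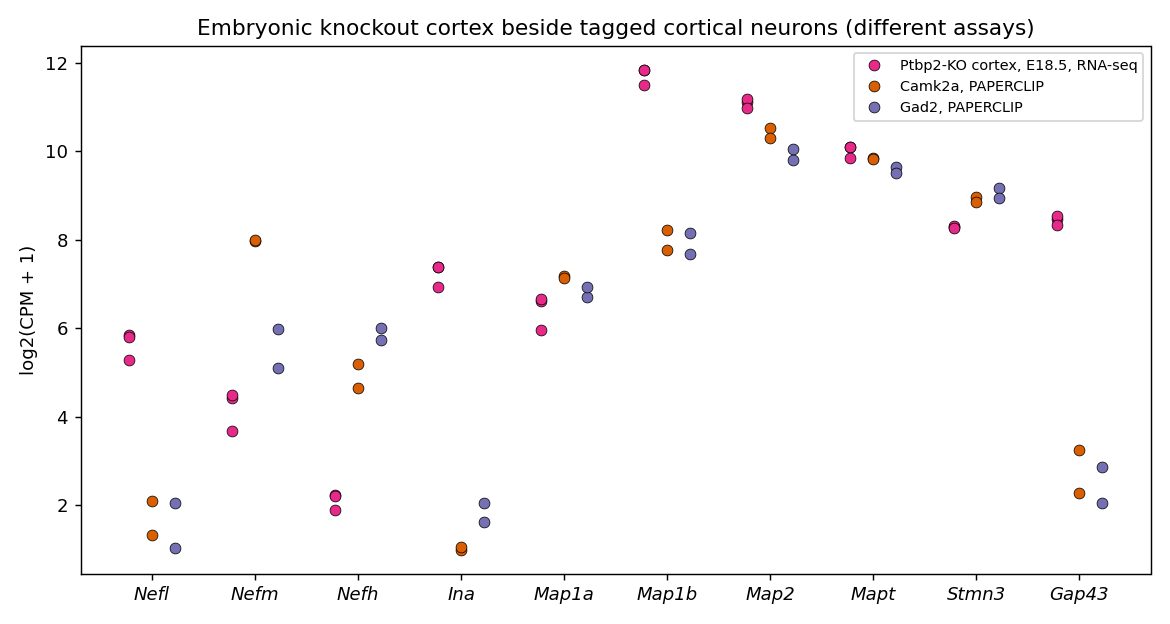
Log2(CPM + 1) of the 10 genes in the 3 knockout cortex RNA-seq libraries and, to their right, in the 2 Camk2a and 2 Gad2 PAPERCLIP libraries; points are libraries. Nefl, Ina, Map1b and Gap43 stand farthest above the tagged neurons in the knockout cortex, and Nefm, Nefh, Map1a and Stmn3 stand below them.

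Genotype, the cells sampled and the assay differ between these 2 sets, the age of the tagged mice is not given, and these cannot be told apart. In addition, counts of whole transcripts grow with length while counts of mRNA ends do not, so the values are set side by side with no test. For scale, the ratio of Camk2a CPM to knockout CPM had a median of 0.551 over 7160 genes with at least 20 CPM in the knockout cortex. At or below the ratio of Ina lay 5.45% of those genes, of Gap43 7.89%, of Nefl 11.98% and of Map1b 15.5%. At or below that of Map1a lay 76.2%. In replicate 3, member values were 0.564 (Nefm) to 0.973 (Stmn3) times the mean of replicates 1 and 2, beside a median of 0.929 over 7684 genes.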

How the data were processed

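The tagged libraries measured crosslinked mRNA ends and the RNA-seq libraries whole transcripts. The authors deposited whole-number counts per gene, which were used as they stand. The submitters' processing notes name cutadapt, Novoalign, STAR and the build mm10; their versions, duplicate removal with the 7-base random barcode, read assignment and strand use are not stated there. Counts of members that overlap another gene (Nefm, Nefh, Ina, Map1a, Map2, Mapt and Gap43) are therefore uncertain. Groups come from the sample titles. The labels call only the knockout libraries biological replicates, so the spread between the others may be technical. Members and lists were chosen with earlier results of these data known.

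Genes that passed filterByExpr were tested with edgeR's quasi-likelihood method (edgeR 4.0.16, R 4.3.3) on TMM-scaled counts. Benjamini-Hochberg adjusted p-values cover every gene of the fit, and the threshold was 0.05. The cell type comparisons come from a fit of the 8 untreated tagged libraries, where the groups of 2 share their estimate of spread, and LPS over PBS from its own 6 libraries. Normalised CPM use TMM-scaled totals and CPM library totals. Alternatives were other scalings, filters, DESeq2 1.42.0, a replicate block, thinned counts and leaving libraries out. The fits were run on simulated data with changes planted only in genes of higher counts, at a single fixed spread. That run does not bear on genes with few counts. The text names all 10 members, the 3 largest called changes in each direction of the related list, and the 3 genes most correlated with each tested member, leaving out predicted genes and those under 10 normalised CPM; 1 gene so chosen is not reported here. Deviations from group means over genes of at least 20 CPM correlated between same-numbered LPS and PBS libraries at 0.130, 0.234 and 0.183. Other pairs correlated below 0, in part because deviations sum to 0 within a group. The titles give replicate numbers and state no pairing, so the block is an alternative and not a known pairing. Replicates within a group all differed by more than sampling noise (chi-square per degree of freedom of 2.10 to 76.9).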

Additional observations from a re-analysis of the deposited data

Results flagged for a closer look

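Map1b had counts in RNA-seq of isolated microglia, which no comparison above uses. These cells were taken with CD11b beads from adult wild-type C57BL/6 mice after 4 daily injections, with 2 brains to a tube. Map1b had 19, 29 and 21 counts after LPS at 1 mg per kg and 72, 39 and 24 after PBS, above the 3 counts that a value of 0 allows in every library, and the lowest was 19. Map1a had 9, 3 and 14 counts after LPS and 15, 18 and 14 after PBS, Map2 had 4, 8 and 2 after LPS and 13, 7 and 11 after PBS, and Mapt had 2 to 7 in the 6 libraries. Nefh had 1 to 4, Stmn3, Nefl and Nefm at most 1, and Gap43 and Ina none. The difference between treatments was not tested.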

How the results depend on the processing

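Over the tested members and comparisons, 411 values kept their direction and side of the threshold, 10 moved past it, 16 lost it and 6 changed sign. All 40 alternative knockout levels moved by less than their SD. Where a library was left out this was fixed in advance, since the mean of 3 values cannot move that far. It therefore shows nothing about how stable those levels are. The sign changes were of uncalled values. They were Map1b in Camk2a over Gad2 (-0.33 with counts thinned to the shallowest library; -0.21 to 0.34 leaving out a library, negative without Gad2 replicate 2 or Camk2a replicate 1) and, in Gfap over Cx3cr1, Map1b (-1.64 to 1.94, positive without untreated replicate 2) and Nefh (-1.64 to 4.44, positive without Gfap replicate 2 or untreated replicate 1).

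Genes called with thinned counts, where fewer genes were tested, numbered 504 for Camk2a over Gad2 (2001 in full), 2282 for Gfap over neurons (5702), 2744 for Cx3cr1 over cortical groups (4687) and 2260 for Gfap over Cx3cr1 (4203). Leaving out a library gave 1026 to 2650, 4335 to 6384, 3569 to 4677 and 3177 to 4084 calls in that order, where Camk2a over Gad2 had 1209 without Gad2 replicate 1, 1026 without Gad2 replicate 2, 1127 without Camk2a replicate 1 and 1180 without Camk2a replicate 2. The lone library left in a group is assumed to vary like the others. LPS over PBS had 201 calls, 632 with no filter and 74 to 167 without a library, with 117 without LPS replicate 1 and 74, 111 and 97 without PBS replicates 1, 2 and 3. Total-count scaling moved the median of all genes in Gfap over neurons to -0.21, and all 7 members stayed lower.

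With the replicate block LPS over PBS had 423 calls. Among the untreated groups, same-numbered libraries correlated at 0.00744 to 0.0663, and the titles state no pairing there either. The block gave 2101, 5722, 4709 and 4229 calls. Of the members it moved only Map1b in Cx3cr1 over cortical groups past the threshold (edgeR adjusted p = 0.0307). With no filter, Gap43 was lower in Gfap than in neurons (-2.43, edgeR adjusted p = 0.0272) and Nefm lower after LPS (-2.20, edgeR adjusted p = 0.00537). With a filter at 5 CPM Nefm did not pass (-2.29, edgeR adjusted p = 0.191). PBS replicate 3 had 24 Nefm counts, beside 1 and 1 in the other PBS libraries and 5, 4 and 5 after LPS. Depth limits every Cx3cr1 value, where members had 0 to 13 counts in a library without treatment.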

Other observations

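In the single liver library the 10 members had 5 counts of 115734, with 3 in Mapt and 2 in Map2, and the other 8 had none. Tubulin genes did not follow a single pattern across the cell types. In the untreated Cx3cr1 libraries Tubb3, the neuronal beta-tubulin (log2 difference -3.65, SE 0.42, edgeR adjusted p = 7.53e-07), and Tuba1a (-2.55, SE 0.40, edgeR adjusted p = 3.63e-05) were lower than the cortical mean, against the higher Tubb5 given above. In the Gfap libraries Tubb3 was lower than in neurons (-2.87, SE 0.25, edgeR adjusted p = 1.26e-08), while Tuba1a did not pass (0.28, SE 0.20). Tubb3 and Tuba1a were named after their values were seen.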
